A study of Mus musculus with 3 samples.

Results

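Genes that overlap on a chromosome cannot be counted apart where their exons coincide, and in the data analysed here such genes had been joined into merged groups under a shared row name. The 9848 exonic parts of these merged groups with enough reads are described here. Exonic parts are the segments into which annotated exon boundaries cut the exons. The merged groups held 40250 of the 469293 parts measured. The parts were chosen by their read counts: inclusion plus exclusion reads had to reach 100 in all 3 libraries, and the other merged parts did not. The kept parts lay in 836 of 1405 merged groups. Among them 415 were within 10 reads above the minimum in their shallowest library, and 433 parts left out were within 10 reads below it.

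The libraries came from skeletal muscle of 12-week-old mice, 1 library each from homozygous Rbm20 I538T, heterozygous and wild-type animals. The missense allele was placed in the mouse gene with CRISPR/Cas, so it is not limited to a cell type. The sources used here do not say which muscle was taken, nor whether a library came from 1 animal or several; other ages were not analysed here. With 1 library per genotype, no difference has a replicate check and no p-value is given. All 95% intervals cover counting error only. PCR copies are counted as separate reads, so the intervals can be too narrow even for counting error.

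RBM20 is an RNA-binding protein of heart and skeletal muscle nuclei that binds UCUU motifs, mostly in introns beside its target exons, and represses their inclusion; the sarcomere gene Ttn is its best known target. PSI (percent spliced in) is the estimated share of transcripts that hold a part. Inclusion reads overlap the part, and exclusion reads are junctions that pass over it. In a merged group a junction of one gene can pass over an exon of another, so normal splicing around a nested gene counts as exclusion of its parts.

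Several muscle genes appear in the table in such groups alone. Capn3 encodes calpain 3, a muscle protease bound to titin whose loss causes a limb-girdle muscular dystrophy in humans. Pkm and Pfkm encode the glycolytic enzymes pyruvate kinase and muscle phosphofructokinase. Plec encodes plectin, which links intermediate filaments to Z-discs and the cell membrane, and Pdlim7 encodes a PDZ and LIM domain protein of the Z-disc.

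Pkm has a pair of mutually exclusive exons of equal length, of which the M1 exon marks adult muscle and the M2 exon marks embryonic and dividing cells. Both are shown 5′ to 3′ from GENCODE M21 transcripts on GRCm38, plus strand, because they are the alternative forms whose use is compared; capitals mark the 64 of 167 bases that differ, an identity of 61.7%. The M1 exon lies at chr9:59675029-59675195 and the M2 exon at chr9:59675568-59675734.
Pkm M1 exon: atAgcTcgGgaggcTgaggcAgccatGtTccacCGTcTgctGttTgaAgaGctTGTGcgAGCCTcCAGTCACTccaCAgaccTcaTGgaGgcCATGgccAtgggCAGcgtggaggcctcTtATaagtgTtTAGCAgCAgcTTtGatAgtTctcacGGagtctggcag
Pkm M2 exon: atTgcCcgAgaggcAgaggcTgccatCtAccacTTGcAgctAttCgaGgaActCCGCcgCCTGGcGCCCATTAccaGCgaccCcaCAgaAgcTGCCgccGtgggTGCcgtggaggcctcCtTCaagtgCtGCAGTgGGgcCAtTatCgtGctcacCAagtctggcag

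Capn3 exons 6, 15 and 16 are known to be left out of some transcripts of immature muscle, and are shown because exclusion reads over them were found in 1 library. They lie on the plus strand at chr2:120486333-120486476, chr2:120498968-120498985 and chr2:120501211-120501324. Capitals mark TCTT, the DNA letters of the RBM20 motif, searched on the transcribed strand. Exon 16 holds 1 match and exons 6 and 15 hold none. Of coding member parts of 90 to 130 bases in exons of a single gene, 31.1% hold the letters, so a match is a description of the sequence and not a binding site.
Capn3 exon 6: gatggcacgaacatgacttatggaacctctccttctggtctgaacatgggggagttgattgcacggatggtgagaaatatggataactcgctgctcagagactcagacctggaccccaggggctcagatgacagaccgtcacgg
Capn3 exon 15: aaaaagaaaaaaaacaag
Capn3 exon 16: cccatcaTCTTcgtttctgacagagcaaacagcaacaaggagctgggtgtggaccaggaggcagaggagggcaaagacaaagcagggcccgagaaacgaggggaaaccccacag

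A 15-base Plec exon at chr15:76194559-76194573 and a 117-base stretch of Hnrnpm at chr17:33666530-33666646 lie on the minus strand, are wholly coding and are multiples of 3 in length. They are shown because their PSI differed among the libraries. Neither holds TCTT, so no base is in capitals.
Plec short exon: cactggagggcagag
Hnrnpm stretch: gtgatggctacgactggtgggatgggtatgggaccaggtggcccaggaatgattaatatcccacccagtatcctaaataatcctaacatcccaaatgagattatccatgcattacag

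Nme1 and Nme2 encode nucleoside diphosphate kinases and are neighbours joined by a gene that spans both, Gm20390. Their 102-base second coding exons lie on the minus strand at chr11:93963227-93963328 and chr11:93952800-93952901. They are shown because the Nme1 exon had a large difference and the Nme2 exon has the same length. Capitals mark the 25 bases that differ, an identity of 75.5%.
Nme1 second coding exon: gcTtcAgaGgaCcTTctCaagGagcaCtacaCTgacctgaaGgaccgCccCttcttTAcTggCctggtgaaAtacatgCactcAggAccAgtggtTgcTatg
Nme2 second coding exon: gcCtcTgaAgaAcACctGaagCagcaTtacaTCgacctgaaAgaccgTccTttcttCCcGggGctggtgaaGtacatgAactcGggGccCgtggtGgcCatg

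The members came mainly from protein-coding genes joined with other genes. Of the 836 groups, 340 held at least 2 protein-coding genes (4714 parts), 242 held 1 protein-coding gene with small RNA genes (3307 parts), 171 held 1 protein-coding gene with other non-coding genes (1407 parts) and 83 held no protein-coding gene (420 parts). The genes of each group lay on 1 strand. Groups of 2 genes were the most frequent, at 551, and the largest joined 41 genes. Of the member parts 4642 were wholly coding, 2172 were untranslated and 3020 were partly coding or in non-coding exons; 14 lay in no exon of the annotation used.

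Member parts held 17002506 inclusion reads in the homozygous, 24794467 in the heterozygous and 22175861 in the wild-type library, and their shares of all inclusion reads were 7.87% in homozygous, 9.34% in heterozygous and 9.25% in wild-type muscle. Their median depth, in inclusion plus exclusion reads, was 404 in homozygous, 612 in heterozygous and 494 in wild-type muscle. The targeted gene Rbm20, which is in no merged group, was at 2.97 RPM in homozygous, 10.8 RPM in heterozygous and 12.97 RPM in wild-type muscle, where RPM is inclusion reads scaled to a library total of 1e6 inclusion reads. Fast-fibre markers were abundant in every library, and 11 of them summed to 210352 RPM in homozygous, 162655 RPM in heterozygous and 177299 RPM in wild-type muscle. The 8 slow-fibre markers summed to 134.7 RPM in homozygous, 894.5 RPM in heterozygous and 2325 RPM in wild-type muscle; all 8 were at least 2-fold lower in homozygous than in wild-type muscle, and 6 were in heterozygous muscle. The 8 adipocyte markers summed to 3572 RPM in homozygous, 10196 RPM in heterozygous and 7546 RPM in wild-type muscle. The 6 immune markers summed to 136.8 RPM in homozygous, 341.1 RPM in heterozygous and 284.5 RPM in wild-type muscle, and the 6 nerve and Schwann cell markers to 45.3 RPM in homozygous, 146.9 RPM in heterozygous and 120.0 RPM in wild-type muscle. The 8 fibroblast and tendon markers summed to 848.6 RPM in homozygous, 2020.2 RPM in heterozygous and 1720.5 RPM in wild-type muscle, the 6 endothelial markers to 125.8 RPM in homozygous, 191.0 RPM in heterozygous and 201.5 RPM in wild-type muscle, and the 5 erythroid markers to 3399 RPM in homozygous, 6732 RPM in heterozygous and 5606 RPM in wild-type muscle. No marker was at 0 in all 3 libraries. The part that fibre type or other cells had in any difference given here was not tested, and in whole muscle fewer cells of a type cannot be told apart from less RNA per cell.

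A part was counted as different between libraries where PSI differed by at least 20 percentage points. In homozygous over wild-type muscle this held for 245 parts (2.49%), with 125 higher (1.27%) and 120 lower (1.22%), beside 2.04% of the whole table, of which 0.982% higher and 1.06% lower. In heterozygous over wild-type muscle it held for 217 parts (2.20%), with 91 higher (0.924%) and 126 lower (1.28%), beside 2.06% of the whole table, of which 0.889% higher and 1.17% lower. In homozygous over heterozygous muscle it held for 212 parts (2.15%), with 118 higher (1.20%) and 94 lower (0.955%), beside 2.15% of the whole table, of which 1.19% higher and 0.966% lower. The shares among merged groups were near those of the whole table in each pair. PSI was exactly equal in 60.9% of members for homozygous over wild type, 61.8% for heterozygous over wild type and 61.6% for homozygous over heterozygous, beside 67.4%, 67.1% and 68.0% of the whole table. Much of this is saturation, since 4867 member parts outside introns of other genes and 350 inside had no exclusion reads in any library, which fixes their PSI at 100%.

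Neighbouring parts share exclusion reads, so the differences rested on 183 distinct sets of exclusion counts in homozygous over wild type, 170 in heterozygous over wild type and 159 in homozygous over heterozygous. Sets were told apart within each group, so junctions that pass over several groups count more than once. Without correction for part length the split was 108 higher and 157 lower in homozygous over wild type. It was 67 higher and 170 lower in heterozygous over wild type, and 148 higher and 104 lower in homozygous over heterozygous. The split over the whole table without this correction was not computed. Of the parts with at least 300 reads in all 3 libraries, 786 inside an intron of another gene and 4639 elsewhere, 47, 50 and 50 differed in the same pairs. The share over the whole table at 300 reads was not computed.

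Member parts were split by position inside the group. The single-gene exons inside an intron of another gene of the group numbered 1389, and their median PSI was 27.3% in homozygous, 31.1% in heterozygous and 31.95% in wild-type muscle. Single-gene exons in no such intron numbered 6535, and their median PSI was 100% in each library. The intronic parts differed in 85 cases (6.12%) in homozygous over wild type, 72 (5.18%) in heterozygous over wild type and 72 (5.18%) in homozygous over heterozygous. Outside introns 1.70%, 1.59% and 1.45% differed in the same pairs. Exons shared by at least 2 genes and in no intron numbered 1853, of which 2.54%, 2.10% and 2.10% differed. The PSI of a nested part moves with the ratio of the genes' levels as well as with splicing. The classes also differ in kind of part. Wholly coding parts made up 20.1% of parts inside an intron of another gene and 51.8% elsewhere. Over all members, median PSI in wild-type muscle was 100% for wholly coding and 6.81% for partly coding or non-coding parts. Median PSI was not split by both, so position and kind of part cannot be told apart in the medians.

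**Figure D1:**
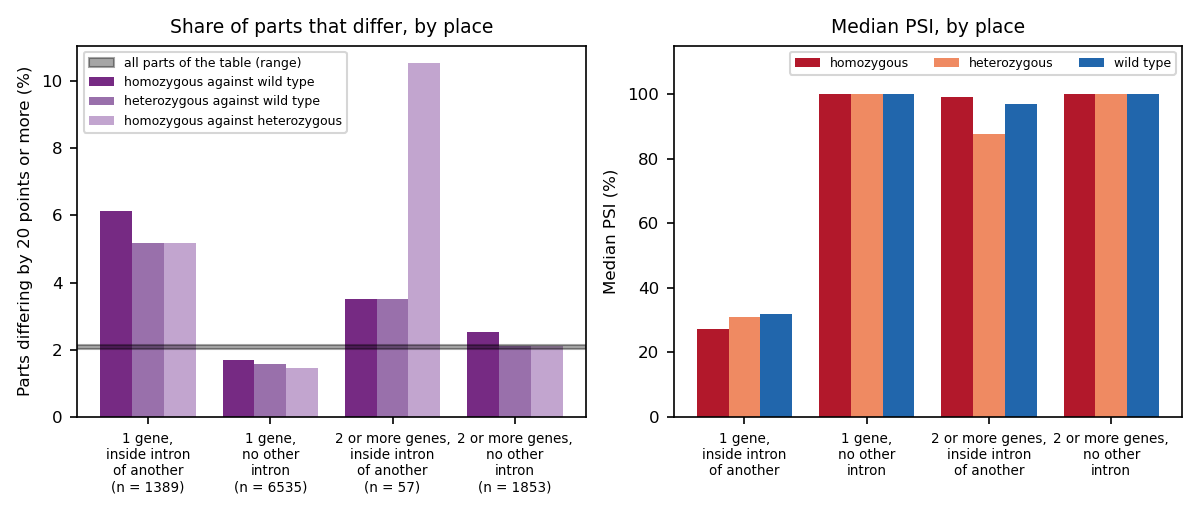
Left, the share of member parts (%) whose PSI differed by 20 percentage points or more, by the position of the part in its merged group, for the 3 pairs of libraries; the grey band is the range of the shares over all parts of the table. Right, the median PSI (%) of the same classes in each library. Single-gene parts inside an intron of another gene differed in 5.18% to 6.12% of cases, above the band; the class of 57 parts is small.

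Of the 1446 parts inside an intron of another gene, shared exons included, 6.02% differed in homozygous over wild type, against 1.88% of 8402 elsewhere. Among parts with exclusion reads in at least 1 library the shares were closer, 7.94% of 1096 inside introns and 4.47% of 3535 elsewhere. Among wholly coding parts 6.21% of 290 inside introns and 1.31% of 4352 elsewhere differed in this pair. Among untranslated parts the shares were 8.13% of 455 and 2.45% of 1717, and among partly coding or non-coding parts 4.56% of 701 and 2.54% of 2319. With at least 300 reads in the shallowest library the shares were 2.04% of 786 and 0.668% of 4639, and with fewer reads 10.8% of 660 and 3.37% of 3763. Parts of a group share junctions, so these shares are a description with no test.

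In Capn3 (ENSMUSG00000079110, GRCm38 chromosome 2, 120456019 to 120504913), merged with the glucosidase gene Ganc, 0 of 42 member parts differed by 20 points in any of the 3 pairs. Exon 6, shown above, had 378 inclusion and 0 exclusion reads in homozygous, 408 and 10 in heterozygous, and 431 and 0 in wild-type muscle. Its PSI was 100% (97.9 to 100) in homozygous, 95.1% (91.3 to 97.3) in heterozygous and 100% (98.2 to 100) in wild-type muscle. Exclusion reads over this exon were found in the heterozygous library alone, a difference from wild type of -4.89 points (interval -8.71 to -2.03). Exon 15 was at 100% in homozygous, 97.6% in heterozygous and 100% in wild-type muscle, with 0 exclusion reads in homozygous, 5 in heterozygous and 0 in wild-type muscle. The first part of exon 16 was at 100% in homozygous, 97.8% in heterozygous and 100% in wild-type muscle. These exons were thus at or near full inclusion in all 3 libraries. A 79-base part between exons 15 and 16, not wholly coding, was at 8.11% in homozygous, 3.23% in heterozygous and 0% in wild-type muscle.

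The level of Capn3, from parts of that gene alone, was 67.99 RPM in homozygous, 90.2 RPM in heterozygous and 97.7 RPM in wild-type muscle. The log2 ratio on RPM plus 1 was -0.52 in homozygous over wild type and -0.11 in heterozygous over wild type, where the medians over all 10201 genes and groups were -0.18 and 0.10. Ganc was at 21.1 RPM in homozygous, 17.8 RPM in heterozygous and 27.7 RPM in wild-type muscle. Per kilobase of exon, Capn3 was at 16.03 in homozygous, 21.3 in heterozygous and 23.04 in wild-type muscle and Ganc at 2.42 in homozygous, 2.05 in heterozygous and 3.17 in wild-type muscle. Capn3 was the higher of the pair in each library, per length and in RPM.

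Pkm (ENSMUSG00000032294, GRCm38 chromosome 9, 59656368 to 59679375) was spliced mainly to the muscle form in every library, and 0 of its 37 parts differed by 20 points in any pair. The M1 exon had 39497 inclusion and 574 exclusion reads in homozygous, 29545 and 859 in heterozygous, and 35237 and 524 in wild-type muscle. Its PSI was 96.8% in homozygous, 93.8% in heterozygous and 96.7% in wild-type muscle. The M2 exon was at 4.39% in homozygous, 7.88% in heterozygous and 5.78% in wild-type muscle, from 1923 inclusion reads in homozygous, 2702 in heterozygous and 2441 in wild-type muscle. The heterozygous library had the lowest M1 and the highest M2 inclusion. Against wild type its M1 difference was -2.93 points (interval -3.42 to -2.45) and its M2 difference 2.09 points (interval 1.72 to 2.47).

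Coding parts before the M1 and M2 pair were passed over by junctions whose number differed among the libraries. The 89-base part among them had 1349 exclusion reads in homozygous, 224 in heterozygous and 1317 in wild-type muscle. Its PSI was 90.3% in homozygous, 98.1% in heterozygous and 89.03% in wild-type muscle, and heterozygous muscle differed from wild type by 9.02 points (interval 8.42 to 9.63). A 153-base coding part further on was at 98.6% in homozygous, 99.1% in heterozygous and 90.4% in wild-type muscle, with 266 exclusion reads in homozygous, 122 in heterozygous and 1538 in wild-type muscle. The wild-type library was thus lowest at the second part, and close to the homozygous library at the first. The level of Pkm was 2269 RPM in homozygous, 1627 RPM in heterozygous and 1889 RPM in wild-type muscle.

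Pfkm (ENSMUSG00000033065, GRCm38 chromosome 15, 98092589 to 98132451) had 2 of 29 parts that differed, both toward its 5′ end and both low in wild type. A 341-base part shared with the non-coding gene Gm26513 had 136 inclusion and 0 exclusion reads in homozygous, 184 and 0 in heterozygous, and 84 and 147 in wild-type muscle. Its PSI was 100% (90.8 to 100) in homozygous, 100% (93.00 to 100) in heterozygous and 13.7% (10.8 to 17.2) in wild-type muscle. A 146-base untranslated part was at 100% in homozygous, 100% in heterozygous and 61.3% in wild-type muscle, and had the same 147 exclusion reads in wild type. Exclusion reads over both parts were found in the wild-type library alone. The 93-base coding part further on had 5337 inclusion reads in homozygous, 5731 in heterozygous and 4596 in wild-type muscle. Beside it the 341-base part had few reads in every library, so its PSI is not a share of all Pfkm transcripts.

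Coding parts nearer the 5′ end of Pfkm had few exclusion reads. A 157-base part there had 15 in homozygous, 5 in heterozygous and 42 in wild-type muscle, fewest in the heterozygous library. Further on, 11 coding parts in a row had 282 or more exclusion reads in each library. The 153-base part among them had 14841 inclusion and 679 exclusion reads in homozygous, 16584 and 2077 in heterozygous, and 13021 and 1138 in wild-type muscle. Its PSI was 90.98% in homozygous, 78.6% in heterozygous and 84.1% in wild-type muscle, and the homozygous minus heterozygous difference was 12.3 points (interval 11.3 to 13.3). The heterozygous library was lowest there and the homozygous library highest, within the 20 points of the rule. The level of Pfkm was 1415 RPM in homozygous, 1292 RPM in heterozygous and 1241 RPM in wild-type muscle. For the glycolysis list, which has Pkm and Pfkm in merged groups, 2 of 66 parts were higher and 0 lower in each mutant library over wild type.

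**Figure D2:**
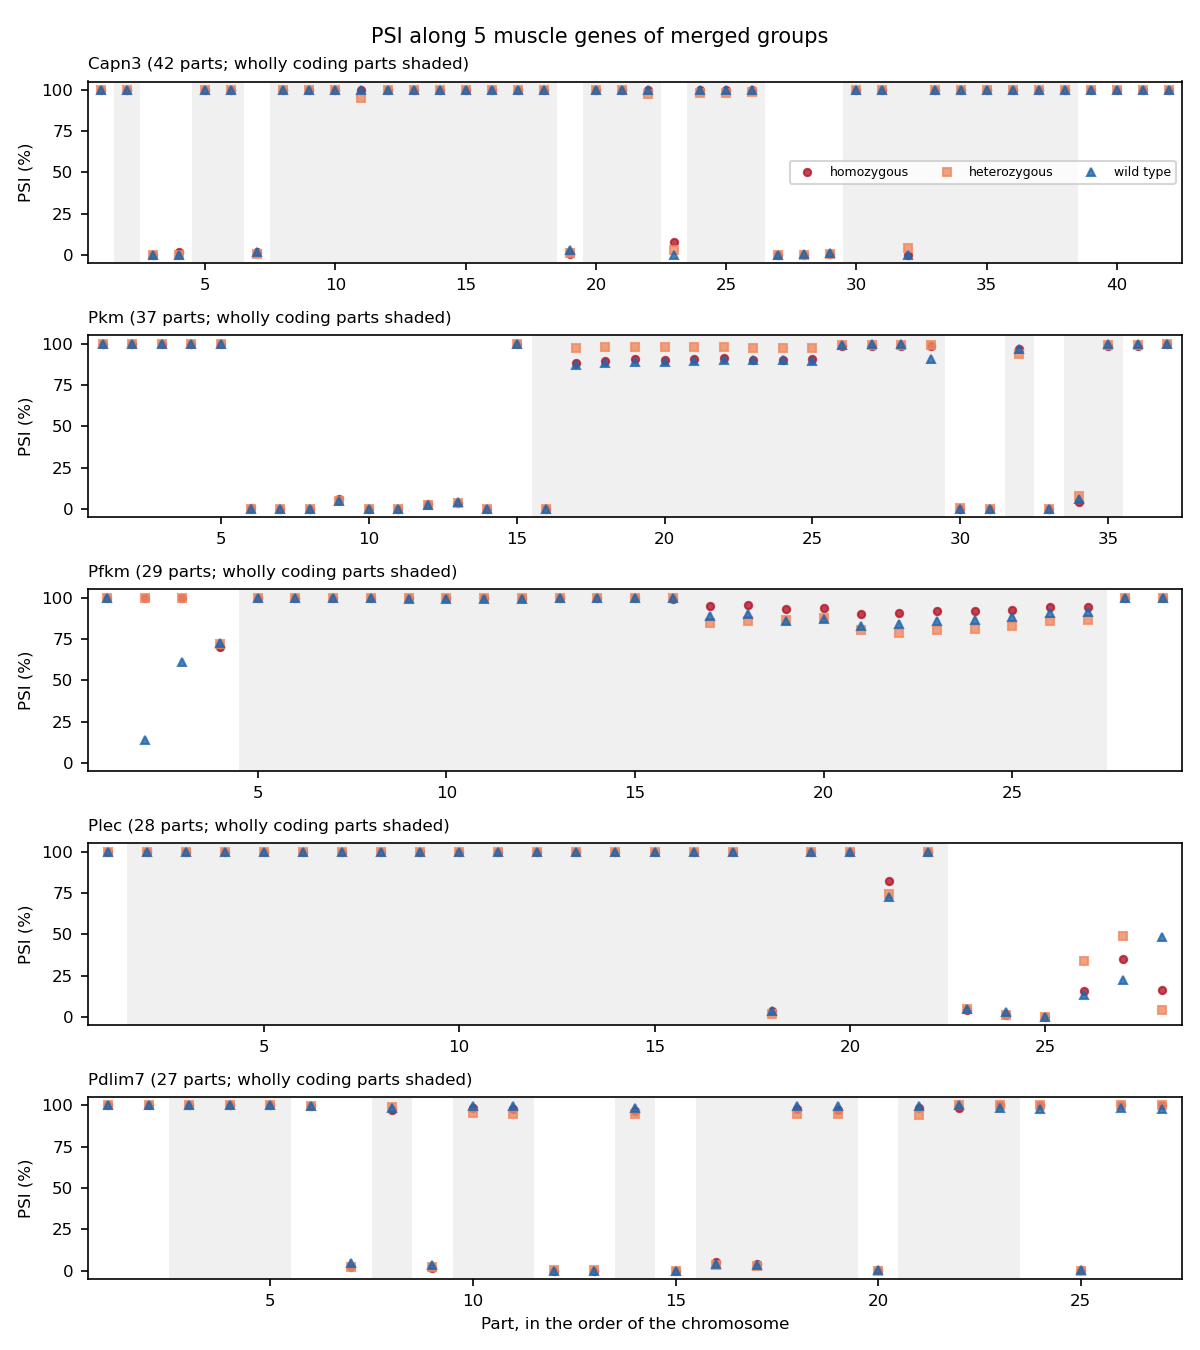
PSI (%) of every member part along Capn3, Pkm, Pfkm, Plec and Pdlim7, in the order of the chromosome, with 1 point per library (homozygous, heterozygous, wild type) and wholly coding parts shaded. Coding parts of Capn3 are at 95.1% or more except 1 part at 0% to 4.55%, 2 parts toward the 5′ end of Pfkm are low in wild type alone, and the last 3 Plec parts spread between 4.28% and 49.0%.

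Plec (ENSMUSG00000022565, GRCm38 chromosome 15, 76170974 to 76232574, minus strand), merged with the ADP-ribosyltransferase gene Parp10, is known for alternative first exons that join a common body. Of its 28 member parts, 1 was lower in homozygous than in wild-type muscle; in heterozygous over wild type 2 were higher and 1 was lower. All lay among the last 3 parts toward the 5′ end. The 724-base part had 139 inclusion and 111 exclusion reads in homozygous, 33 and 113 in heterozygous, and 383 and 63 in wild-type muscle. Its PSI was 16.1% (13.01 to 19.7) in homozygous, 4.28% (2.95 to 6.17) in heterozygous and 48.2% (41.7 to 54.9) in wild-type muscle, so wild type was highest and the intervals did not overlap. A 287-base part was at 15.4% in homozygous, 34.1% in heterozygous and 13.2% in wild-type muscle. One of 139 bases was at 34.9% in homozygous, 49.03% in heterozygous and 22.3% in wild-type muscle. The heterozygous library was highest in both.

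The 15-base Plec exon shown above was at 82.4% (79.3 to 85.1) in homozygous, 74.1% (71.3 to 76.7) in heterozygous and 72.5% (68.2 to 76.5) in wild-type muscle. The homozygous library was highest, and differed from wild type by 9.88 points (interval 4.82 to 15.04), under the rule. A 36-base coding part was in few transcripts of any library, at 3.31% in homozygous, 1.90% in heterozygous and 3.71% in wild-type muscle. The level of Plec was 204.7 RPM in homozygous, 255.3 RPM in heterozygous and 162.0 RPM in wild-type muscle, and that of Parp10 was 4.40 RPM in homozygous, 6.15 RPM in heterozygous and 6.05 RPM in wild-type muscle.

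Pdlim7 (ENSMUSG00000021493, GRCm38 chromosome 13, 55495795 to 55513676, minus strand), merged with the microRNA gene Mir6945, had 27 member parts, of which 0 differed by 20 points in any pair. A 74-base coding part had 171 exclusion reads in homozygous, 644 in heterozygous and 5 in wild-type muscle. Its PSI was 98.6% in homozygous, 94.5% in heterozygous and 99.9% in wild-type muscle. Of its coding parts, 5 had 644 exclusion reads in heterozygous muscle, and their heterozygous minus wild-type differences were between -5.45 and -4.48 points. A 206-base untranslated part was included in few transcripts, at 2.11% in homozygous, 2.32% in heterozygous and 4.67% in wild-type muscle. The level of Pdlim7 was 991.4 RPM in homozygous, 731.6 RPM in heterozygous and 721.5 RPM in wild-type muscle, and its log2 ratio was 0.46 in homozygous over wild type.

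Other sarcomere and cytoskeleton genes in merged groups were Ankrd23, Actg1 and Syne2. Ankrd23 encodes a stretch-responsive ankyrin repeat protein of the sarcomere, and 1 of its 14 parts differed, an untranslated part of 25 bases shared with Gm42417. It was at 100% in homozygous, 51.7% in heterozygous and 53.5% in wild-type muscle, with 0 exclusion reads in homozygous, 148 in heterozygous and 84 in wild-type muscle. A 1118-base untranslated part of Ankrd39, in the same group, was at 100% in homozygous, 26.4% in heterozygous and 31.95% in wild-type muscle, with 0 exclusion reads in homozygous, 185 in heterozygous and 88 in wild-type muscle. In both, the homozygous library had no exclusion reads. From 588 bases of its own, Ankrd23 was at 126.6 RPM in homozygous, 159.2 RPM in heterozygous and 95.7 RPM in wild-type muscle. Parts of Ankrd39 alone were at 7.19 RPM in homozygous, 12.4 RPM in heterozygous and 9.81 RPM in wild-type muscle. The group was at 946.6 RPM in homozygous, 1167 RPM in heterozygous and 711.4 RPM in wild-type muscle. Most of its reads thus lay outside parts of a single gene, and the Ankrd23 value is not its full level.

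Actg1 encodes cytoplasmic gamma actin, which forms filaments at costameres in muscle. A 78-base part, not wholly coding, had 368 inclusion and 1154 exclusion reads in homozygous, 381 and 2475 in heterozygous, and 1294 and 1802 in wild-type muscle. Its PSI was 16.7% (15.1 to 18.4) in homozygous, 8.80% (7.97 to 9.70) in heterozygous and 31.04% (29.5 to 32.6) in wild-type muscle, so wild type was highest, the heterozygous library lowest and no intervals overlapped. The part beside it, of 64 bases, was at 17.05% in homozygous, 7.69% in heterozygous and 31.7% in wild-type muscle, and one of 45 bases was at 43.97% in homozygous, 25.7% in heterozygous and 48.7% in wild-type muscle. All 3 passed 20 points in heterozygous over wild type. The first differed by -14.4 points (interval -16.6 to -12.1) in homozygous over wild type and did not. The level of Actg1 was 264.2 RPM in homozygous, 391.4 RPM in heterozygous and 431.5 RPM in wild-type muscle. In Syne2, which encodes nesprin 2 of the nuclear envelope, 0 of 16 parts passed; a 627-base part was at 22.9% in homozygous, 4.86% in heterozygous and 6.62% in wild-type muscle. Over the 73 parts of the costamere and cytoskeleton list, 0 were higher and 1 was lower in homozygous over wild type, beside 2.04% of the whole table in either direction. In heterozygous over wild type 2 were higher and 4 lower, beside 2.06%.

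Splicing factor and RNA-binding protein genes in merged groups were Hnrnpm, Clk4, Tia1 and Ddx5, with 124 member parts. In homozygous over wild type 1 was higher and 1 lower, beside 2.04% of the whole table in either direction. In heterozygous over wild type 2 were higher and 4 lower, beside 2.06%, and in homozygous over heterozygous 4 were higher and 2 lower, beside 2.15%. The neighbouring parts of the Hnrnpm stretch made up 3 of the 4 lower parts in heterozygous over wild type. They also made up 3 of the 4 higher parts in homozygous over heterozygous. Hnrnpm encodes a nuclear RNA-binding protein that regulates splicing, and the 41-base part of the stretch shown above had 106 inclusion and 100 exclusion reads in homozygous, 19 and 200 in heterozygous, and 96 and 144 in wild-type muscle. Its PSI was 44.7% (38.1 to 51.5) in homozygous, 6.75% (4.34 to 10.3) in heterozygous and 33.7% (28.2 to 39.6) in wild-type muscle. The heterozygous library was low and the intervals of the other libraries overlapped; heterozygous minus wild type was -26.9 points (interval -33.4 to -20.4). The remaining parts of the stretch were at 46.4% in homozygous, 6.65% in heterozygous and 32.8% in wild-type muscle, and at 44.5% in homozygous, 7.60% in heterozygous and 33.8% in wild-type muscle. A 53-base coding part was highest in the heterozygous library, at 60.05% in homozygous, 87.8% in heterozygous and 58.7% in wild-type muscle. The level of Hnrnpm was 70.8 RPM in homozygous, 70.9 RPM in heterozygous and 81.4 RPM in wild-type muscle.

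Clk4 encodes a kinase of SR splicing factors. Its 91-base coding part had 233 inclusion and 88 exclusion reads in homozygous, 241 and 54 in heterozygous, and 174 and 21 in wild-type muscle. Its PSI was 60.97% (55.02 to 66.6) in homozygous, 72.5% (66.2 to 77.9) in heterozygous and 83.02% (75.7 to 88.5) in wild-type muscle, and homozygous minus wild type was -22.05 points (interval -30.1 to -12.8). The 282-base part that follows directly, not wholly coding, was highest in the heterozygous library, at 5.59% in homozygous, 20.7% in heterozygous and 10.1% in wild-type muscle. Clk4 was at 35.99 RPM in homozygous, 34.7 RPM in heterozygous and 30.1 RPM in wild-type muscle. In Tia1, an RNA-binding regulator of splicing and of stress granules, a 647-base part had 14 exclusion reads in homozygous, 129 in heterozygous and 47 in wild-type muscle. Its PSI was 78.7% (68.5 to 86.2) in homozygous, 26.97% (23.1 to 31.3) in heterozygous and 48.3% (40.7 to 56.02) in wild-type muscle, and no intervals overlapped. Tia1 was at 12.6 RPM in homozygous, 33.6 RPM in heterozygous and 29.3 RPM in wild-type muscle, and its neighbour C87436 at 8.56 RPM in homozygous, 5.83 RPM in heterozygous and 7.45 RPM in wild-type muscle. In the RNA helicase gene Ddx5 a 185-base untranslated part was at 26.3% in homozygous, 55.6% in heterozygous and 21.3% in wild-type muscle, high in the heterozygous library alone.

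**Figure D3:**
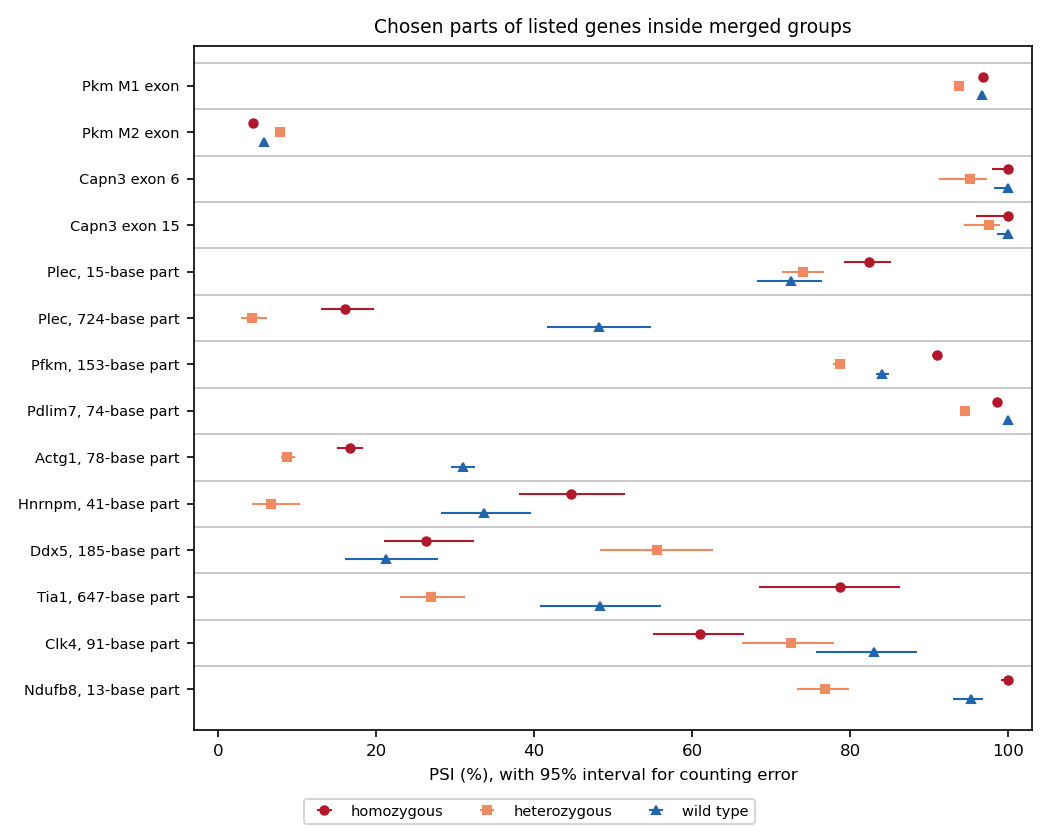
PSI (%) of 14 parts of listed genes that lie in merged groups, chosen after their values were seen, in homozygous, heterozygous and wild-type muscle; bars are 95% intervals for counting error only. The Pkm and Capn3 exons lie close together in the 3 libraries, and the Hnrnpm part is low in the heterozygous library alone.

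The mitochondrial genes in merged groups were Ndufb8, Atp5o, Cpt1b and Esrra, which encode a complex I subunit, an ATP synthase subunit, the muscle carnitine palmitoyltransferase and a nuclear receptor. Of their 77 parts, 0 passed the rule in homozygous or heterozygous over wild type, beside 2.04% and 2.06% of the whole table. In homozygous over heterozygous 1 did, beside 2.15%. That was a 13-base untranslated part of Ndufb8 at 100% in homozygous, 76.8% in heterozygous and 95.2% in wild-type muscle, with 0 exclusion reads in homozygous, 143 in heterozygous and 25 in wild-type muscle. Ndufb8 was at 1139 RPM in homozygous, 1239.6 RPM in heterozygous and 1217 RPM in wild-type muscle and its neighbour Sec31b at 11.6 RPM in homozygous, 8.94 RPM in heterozygous and 18.9 RPM in wild-type muscle.

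Among heart targets of RBM20 listed from the literature, Nexn and Pdlim7 lay in merged groups, with 42 and 27 member parts. Of these parts 0 differed by 20 points in any pair, beside 2.04% to 2.15% of the whole table. Nexn encodes the Z-disc protein nexilin, and its 82-base coding part was at 93.2% in homozygous, 87.2% in heterozygous and 93.03% in wild-type muscle, with 89 exclusion reads in homozygous, 217 in heterozygous and 111 in wild-type muscle. The heterozygous library was lowest there. No gene of the calcium and excitation list lay in a merged group.

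Over all merged groups, parts that differed were ranked by the bound of the interval nearest 0, with 1 part per group. In homozygous over wild type the first was a 1306-base part of Gm14305, merged with the zinc-finger gene Zfp973, at 100% in homozygous, 10.97% in heterozygous and 8.73% in wild-type muscle. It had 0 exclusion reads in homozygous, 265 in heterozygous and 265 in wild-type muscle. The Pfkm part described above came next. In Mndal, an interferon-inducible gene, a 78-base coding part had 204 inclusion and 6 exclusion reads in homozygous, 190 and 735 in heterozygous, and 230 and 738 in wild-type muscle. Its PSI was 95.5% in homozygous, 13.9% in heterozygous and 16.3% in wild-type muscle, high in the homozygous library alone. Zfp973 and Mndal belong to families of near-identical genes, so reads may have been shared with copies and these values are uncertain. The same holds for the interferon-inducible GTPase genes Tgtp1 and Gm12185, whose shared 149-base part was at 83.9% in homozygous, 30.1% in heterozygous and 11.2% in wild-type muscle.

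Trps1 encodes a GATA-type transcription factor, and a 2606-base part of it was at 23.3% in homozygous, 40.8% in heterozygous and 100% in wild-type muscle, with 49 exclusion reads in homozygous, 32 in heterozygous and 0 in wild-type muscle. An untranslated 28-base part of Churc1, merged with the farnesyltransferase gene Fntb, was at 38.98% in homozygous, 44.5% in heterozygous and 100% in wild-type muscle, with 178 exclusion reads in homozygous, 222 in heterozygous and 0 in wild-type muscle. In both, wild type alone lacked exclusion reads. A 2422-base untranslated part of Sap18, which encodes a subunit of a histone deacetylase complex, was at 100% in homozygous, 59.9% in heterozygous and 43.5% in wild-type muscle. A 1984-base untranslated part of Trim67 was at 100% in homozygous, 47.95% in heterozygous and 24.4% in wild-type muscle. In these the homozygous library alone lacked exclusion reads. A 37-base part of the zinc-finger gene Zfp644 was at 13.4% in homozygous, 51.99% in heterozygous and 68.3% in wild-type muscle. Of the 245 parts that differed in homozygous over wild type, 69 had no exclusion reads in 1 of the libraries compared.

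Histone genes ranked high in both pairs with wild type. A 1296-base part of Hist1h2ac was at 29.4% in homozygous, 13.4% in heterozygous and 95.3% in wild-type muscle. In another group, a 2297-base part of Hist1h2be was at 63.4% in homozygous, 9.64% in heterozygous and 97.8% in wild-type muscle, and a 186-base part it shares with Hist1h1e and Gm11398 was at 35.8% in homozygous, 5.25% in heterozygous and 95.8% in wild-type muscle. All 3 had 850 exclusion reads in heterozygous and 2 in wild-type muscle, and in the same order 60, 56 and 60 in homozygous muscle. Such equal counts may come from the same junctions, so these parts may not be separate differences. Histone genes are near copies of each other, and these values are uncertain.

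In heterozygous over wild type the first was a 210-base part of Mrpl33, a mitochondrial ribosomal protein gene merged with Babam2 and Gm43809. This part was at 9.76% in homozygous, 100% in heterozygous and 5.53% in wild-type muscle. It had 58 inclusion and 206 exclusion reads in homozygous, 111 and 0 in heterozygous, and 34 and 223 in wild-type muscle. A 196-base part of Mrpl33 had 26896 inclusion reads in heterozygous muscle, so the 100% is not a share of all Mrpl33 transcripts. A 1465-base coding part of the RNA-binding protein gene Rbm14 was at 68.4% in homozygous, 100% in heterozygous and 11.97% in wild-type muscle. A 346-base untranslated part of the phosphohistidine phosphatase gene Phpt1 was at 22.4% in homozygous, 100% in heterozygous and 29.6% in wild-type muscle. A 4721-base part of Gm49336, ranked in homozygous over heterozygous, was at 6.69% in homozygous, 100% (69.6 to 100) in heterozygous and 29.03% in wild-type muscle. It had 194 inclusion and 73 exclusion reads in homozygous, 326 and 0 in heterozygous, and 303 and 20 in wild-type muscle. In each of these 4 the heterozygous library alone had no exclusion reads.

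Nme1 went the other way. Its 102-base coding exon, shown above, had 2534 inclusion and 0 exclusion reads in homozygous, 3378 and 3586 in heterozygous, and 3041 and 0 in wild-type muscle. Its PSI was 100% (99.7 to 100) in homozygous, 34.6% (33.6 to 35.7) in heterozygous and 100% (99.8 to 100) in wild-type muscle, so the heterozygous library alone was low, and its difference from wild type was -65.4 points (interval -66.4 to -64.3). The 113-base coding exon that follows was at 99.8% in homozygous, 39.6% in heterozygous and 99.8% in wild-type muscle, with 4 exclusion reads in homozygous, 3597 in heterozygous and 5 in wild-type muscle. A 434-base untranslated part of Nme2 was at 91.4% in homozygous, 31.1% in heterozygous and 81.1% in wild-type muscle. The level of Nme1 from parts of its own was 31.3 RPM in homozygous, 32.1 RPM in heterozygous and 34.5 RPM in wild-type muscle. This is not its full level, because most reads of the group lay outside parts of a single gene. The group was at 622.8 RPM in homozygous, 715.4 RPM in heterozygous and 648.0 RPM in wild-type muscle. The 102-base exon copies share 75.5% of their bases, and whether reads were assigned to the wrong gene was not tested.

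**Figure D4:**
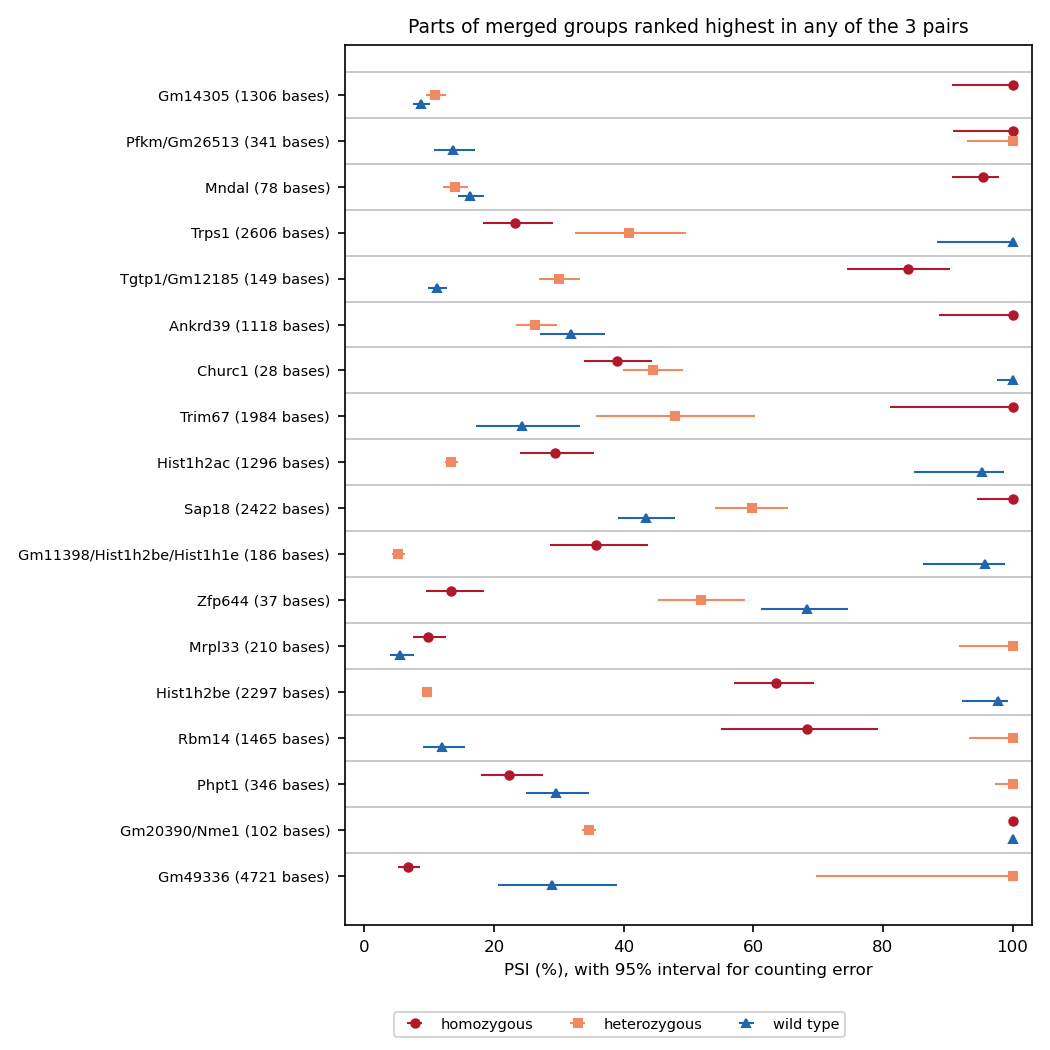
PSI (%) of the 18 parts that ranked highest in any of the 3 pairs, 1 part per group and pair, in homozygous, heterozygous and wild-type muscle; bars are 95% intervals for counting error only. The Nme1 part is at 34.6% in the heterozygous library and 100% in the homozygous and wild-type libraries, and the Gm14305 and Mndal parts are high in the homozygous library alone.

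Levels of merged groups were compared as inclusion reads summed over a group, for 739 groups with at least 5 RPM in a library. A 2-fold difference in homozygous over wild-type muscle held for 68 groups (9.20%), with 3 higher and 65 lower, beside 12.0% of all 10201 genes and groups, of which 1.94% higher and 10.1% lower. In heterozygous over wild-type muscle it held for 43 groups (5.82%), with 20 higher and 23 lower, beside 8.97% of all 10201 genes and groups, of which 5.77% higher and 3.20% lower. In homozygous over heterozygous muscle it held for 81 groups (10.96%), with 7 higher and 74 lower, beside 15.7% of all 10201 genes and groups, of which 1.48% higher and 14.2% lower. With median-of-ratios size factors the splits were 15 higher and 40 lower in homozygous over wild type, 13 and 24 in heterozygous over wild type, and 17 and 37 in homozygous over heterozygous. That scaling brought the median log2 ratio of all genes to 0.03 in homozygous over wild type, beside -0.18 with RPM. Shares over all genes and groups under that scaling were not computed, so these splits cannot be set against the whole table.

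The groups furthest below wild type in homozygous muscle included Kctd13 with Sez6l2 at 0.968 RPM in homozygous, 6.22 RPM in heterozygous and 8.46 RPM in wild-type muscle, a log2 ratio of -2.27. Cstf2, a 3′-end processing factor gene, was at 1.13 RPM in homozygous, 1.39 RPM in heterozygous and 8.59 RPM in wild-type muscle, low in both mutant libraries. Aldh1l1, a folate enzyme gene, was at 5.09 RPM in homozygous, 23.9 RPM in heterozygous and 23.8 RPM in wild-type muscle, and Rcc2 at 2.76 RPM in homozygous, 15.8 RPM in heterozygous and 13.5 RPM in wild-type muscle. Both were low in the homozygous library alone. The Tmem260 group was at 1.21 RPM in homozygous, 4.24 RPM in heterozygous and 8.12 RPM in wild-type muscle, and the Cyp4v3 and Klkb1 group at 1.58 RPM in homozygous, 4.33 RPM in heterozygous and 8.59 RPM in wild-type muscle. The 2410002F23Rik group, which also holds small RNA genes, was at 2.18 RPM in homozygous, 3.21 RPM in heterozygous and 11.4 RPM in wild-type muscle. The interferon-induced GTPase genes Gbp4, Gbp8 and Gbp9 formed a group at 6.64 RPM in homozygous, 13.6 RPM in heterozygous and 29.2 RPM in wild-type muscle. In it Gbp4 was at 2.65 RPM in homozygous, 11.3 RPM in heterozygous and 20.8 RPM in wild-type muscle and Gbp9 at 3.96 RPM in homozygous, 2.14 RPM in heterozygous and 7.76 RPM in wild-type muscle, and the similarity of these genes makes the split uncertain.

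In heterozygous over wild type, the group of Spp1, which encodes the matrix protein osteopontin, was at 3.95 RPM in homozygous, 22.6 RPM in heterozygous and 4.995 RPM in wild-type muscle, high in the heterozygous library alone. The Rnf26 group was at 4.62 RPM in homozygous, 9.54 RPM in heterozygous and 2.12 RPM in wild-type muscle. Dgkh, a diacylglycerol kinase gene, was at 4.42 RPM in homozygous, 1.33 RPM in heterozygous and 8.32 RPM in wild-type muscle, and the group of the lysosomal galactosidase gene Glb1 with Tmppe was at 2.29 RPM in homozygous, 2.42 RPM in heterozygous and 10.3 RPM in wild-type muscle. Of the 454 groups with at least 20 RPM in a library, 28 differed by 2-fold in homozygous over wild type, 15 in heterozygous over wild type and 46 in homozygous over heterozygous. The share over all genes at this minimum was not computed, so these counts cannot be set against the whole table.

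A merged level can hide unequal changes of its genes. In 84 groups at least 2 protein-coding genes had 5 RPM or more in a library from parts of their own. Their log2 ratios lay a median of 0.46 apart in homozygous over wild type, 0.41 in heterozygous over wild type and 0.44 in homozygous over heterozygous, and at least 1 apart in 11, 9 and 15 groups. In homozygous over wild type Armc9 was at a log2 ratio of 1.81 and Psmd1, a proteasome subunit gene joined to it, at -0.09. Kdelc1 was at 0.77 and its partner Tex30 at -0.98. Outside these 84 groups, because it stayed under 5 RPM, Cpt1b was at 3.83 RPM in homozygous, 3.37 RPM in heterozygous and 2.33 RPM in wild-type muscle from parts of its own, and the choline kinase gene Chkb joined to it at 6.55 RPM in homozygous, 7.54 RPM in heterozygous and 10.7 RPM in wild-type muscle.

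**Figure D5:**
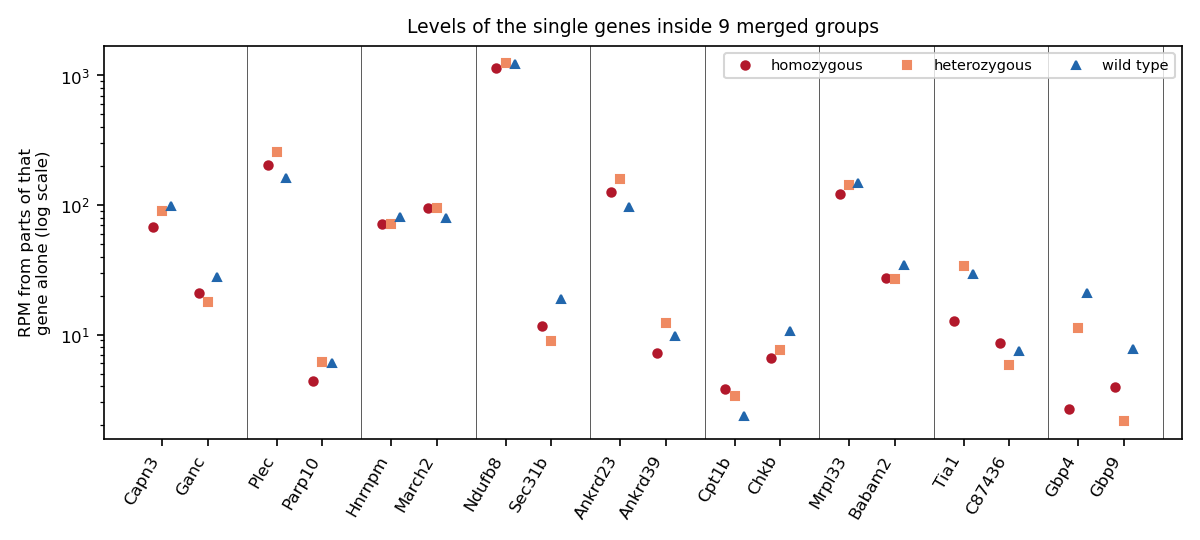
Level in RPM, on a log axis and not scaled to gene length, of the single genes inside 9 merged groups, from parts in exons of that gene alone, in homozygous, heterozygous and wild-type muscle; vertical lines separate the groups. Tia1 is at 12.6 RPM in homozygous and 29.3 RPM in wild-type muscle, while its partner C87436 is at 8.56 and 7.45 RPM. In the groups of Ankrd23, Cpt1b and Mrpl33 most reads lie outside parts of a single gene, so their values are not full gene levels.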

How the data were processed

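The authors counted reads of 3 skeletal muscle libraries, prepared from total RNA with SMART-seq v4 and Nextera XT per the labels' protocols, over exonic parts. The deposited table gives raw counts of inclusion and exclusion reads and PSI as a fraction, per the file headers. Tools named by the submitters are Trimmomatic 0.32, cutadapt 1.1, Bowtie 1.1.1 and TopHat2 2.0.14, on GRCm38. The sources used here do not name the counting program or say whether strand was used.

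PSI was recomputed from raw counts as inclusion reads over part length plus 131, divided by that value plus exclusion reads over 131; it matched the deposited fraction within 5e-07. Differences are the first named genotype minus the second. Intervals are Wilson's carried to the PSI scale and Newcombe's for differences. Levels are RPM over summed inclusion reads (a read can count in several parts), with log2 ratios on RPM plus 1. Genes, exons and sequences come from GENCODE M21; 3381 of 3416 gene IDs in merged groups matched. Python 3.11.15, numpy 2.4.6, pandas 2.3.3 and matplotlib 3.10.9 were used, and the rule was tested on simulated data.

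Named items are Capn3, Pkm, Pfkm, Plec and Pdlim7, listed genes with a part past the rule, the 12, 8 and 6 highest ranked parts in homozygous over wild type, heterozygous over wild type and homozygous over heterozygous, and the 8 and 5 groups with the largest level ratios in the pairs with wild type. Syne2, Nexn, Atp5o, Cpt1b, Esrra, partner genes and further parts of named genes were chosen after their values were seen. The members and lists were chosen with earlier results of these data known. One result under this rule is not reported here.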

Additional observations from a re-analysis of the deposited data

How the results depend on the processing

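Counts are given for homozygous against wild type, heterozygous against wild type and homozygous against heterozygous. At 10 points 667, 610 and 595 parts differed, and at 30 points 121, 104 and 99. With at least 10 reads 1325, 1255 and 1193 did, and with at least 300 reads 47, 50 and 50. Taking 1 part per group left 128, 126 and 109. Leaving out parts inside an intron of another gene, chosen after seeing the data, left 158, 143 and 134. Leaving out parts with PSI of 0 or 100% left 141 in homozygous against heterozygous. With 20 RPM in a library, 28, 15 and 46 groups differed in level. Fewer parts or groups were tested at 300 reads, without intronic parts and at 20 RPM, and more at 10 reads. Shares over the whole table were not computed under these alternatives. The other 29 alternative counts stayed within 1.5 times. For single parts, groups and genes, 607 values kept direction and side of the rule and 33 fell below it. No value turned its direction. Most of the 607 could not come out otherwise, because the setting kept the same PSI difference at the same or a lower cutoff. They are therefore no check of the named parts. At 30 points 40 named parts kept their side and 18 fell below it. Without length correction 44 kept their side and 14 fell below it. No paired analysis was possible because each genotype has 1 library and the labels give no shared replicate numbers. Low read counts, long parts with few exclusion reads, near-identical genes and the single library per genotype all limit precision.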

Other observations

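The values here were chosen after they were seen and are given with no test. The Tgtp1 and Gm12185 group was at 8.74 RPM in homozygous, 25.04 RPM in heterozygous and 26.3 RPM in wild-type muscle, a value that is uncertain because these genes have close copies. In the group of the interferon response factor gene Irf9 and the ubiquitin ligase gene Rnf31, the log2 ratio of homozygous over wild type was -0.75 for Irf9 and -2.52 for Rnf31. Mndal, whose coding part ranked among the largest PSI differences, was at a level of 14.6 RPM in homozygous, 15.5 RPM in heterozygous and 12.6 RPM in wild-type muscle. Summed immune markers were 136.8 RPM in homozygous, 341.1 RPM in heterozygous and 284.5 RPM in wild-type muscle, and their part in these levels was not tested.

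The Atp8a2 and Nupl1 group was at 20.9 RPM in homozygous, 7.52 RPM in heterozygous and 11.3 RPM in wild-type muscle, highest in the homozygous library. Syne2 was at 32.7 RPM in homozygous, 65.5 RPM in heterozygous and 36.5 RPM in wild-type muscle, high in the heterozygous library alone.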
